A study of Mus musculus with 18 samples.

Results

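Matrix metalloproteinases are zinc-dependent proteases that cleave collagens, fibronectin, laminins and other matrix proteins. The Mmp and Timp genes with Tnc were followed here through bulk RNA-seq counts of mouse esophageal organoids, as 10 of the 24421 gene rows of each deposited table: Mmp2, Mmp3, Mmp9, Mmp10, Mmp13, Mmp14, Timp1, Timp2, Timp3 and Tnc. They were taken by their symbol, and all 10 were found in all 3 tables. Levels are CPM, a gene's counts scaled to a common library total. All 18 libraries were declared Trp53-/- with Myc OE and the guide sgCdkn2a, and their growth medium was listed with 2 µM A83-01, a blocker of the TGF-beta type I receptor. The premalignant table held sgScr (n = 3) and sgTgfbr2 (n = 4), the latter as 2 libraries of a line numbered 1 and 2 libraries of a line numbered 2. The tumor table held sgScr (n = 3) and sgTgfbr2 (n = 2). In the third table, tumor organoids with sgTgfbr2 received DMSO as vehicle (n = 3) or 2 µM pinaverium bromide (PB, a calcium channel blocker; n = 3) after 72 h of culture. The labels give neither a clone nor an animal for any library and do not say that replicates were separate cultures, so p-values measure only how far these libraries vary, which may be technical variation.

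Most Mmp proteins are secreted as inactive zymogens, while Mmp14 (MT1-MMP) is held in the plasma membrane, cleaves fibrillar collagen around the cell and activates pro-Mmp2 in a complex that contains Timp2. Mmp2 and Mmp9 are the gelatinases, Mmp3 and Mmp10 the stromelysins, and Mmp13 is a collagenase. Timp1, Timp2 and Timp3 bind and inhibit Mmp proteins; Timp3 also binds to the matrix and inhibits several Adam and Adamts proteases. Tnc encodes tenascin C, a large matrix glycoprotein that is sparse in most resting adult epithelia and abundant in healing wounds and in tumor stroma. Many Mmp genes are known as targets of AP-1, the dimer of Fos and Jun family proteins, and TGF-beta is known to act on Mmp, Timp and tenascin genes in a manner that depends on the cell type.

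Mmp13, Mmp3 and Mmp10 lie on the plus strand of one gene cluster on chromosome 9 of GRCm38, at 7272514 to 7283331, 7445822 to 7455975 and 7502352 to 7510240. Promoters were taken from RefSeq (GRCm38.p6), which gave an entry for 8 of the 10 genes and none for Mmp2 and Mmp9. The 250 bases before the start site were searched on both strands for the AP-1 motif TGAGTCA, which 4.46% of the 32851 promoters of that length hold. Among the 8 genes with an entry, these letters stood in Mmp13, Mmp3 and Mmp10, so these 3 promoters are shown, with the motif in capitals. They cover chr9:7272264-7272513, chr9:7445572-7445821 and chr9:7502092-7502341, plus strand.
Mmp13: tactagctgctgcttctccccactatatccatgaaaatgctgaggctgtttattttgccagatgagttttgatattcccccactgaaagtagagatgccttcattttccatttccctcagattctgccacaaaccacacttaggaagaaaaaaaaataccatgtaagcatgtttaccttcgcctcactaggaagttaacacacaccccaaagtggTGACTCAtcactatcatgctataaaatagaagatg
Mmp3: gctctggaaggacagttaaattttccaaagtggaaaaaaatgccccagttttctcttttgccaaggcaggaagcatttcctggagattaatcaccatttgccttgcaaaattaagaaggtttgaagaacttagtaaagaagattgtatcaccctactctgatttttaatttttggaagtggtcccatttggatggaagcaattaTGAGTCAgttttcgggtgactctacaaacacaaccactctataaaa
Mmp10: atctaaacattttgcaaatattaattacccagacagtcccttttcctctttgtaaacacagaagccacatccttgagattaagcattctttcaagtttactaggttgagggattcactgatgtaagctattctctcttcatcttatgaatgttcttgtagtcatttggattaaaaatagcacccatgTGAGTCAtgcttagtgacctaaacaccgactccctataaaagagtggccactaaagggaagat
The motif's first base lies 35, 46 and 63 bases before the start site. In Mmp13 the motif is read on the minus strand, so that its reverse complement is printed. These matches describe the sequence only. Of the other genes, Mmp14 lies on chromosome 14 (54431612 to 54445364, plus strand), Mmp2 on 8 (92827291 to 92853420, plus) and Mmp9 on 2 (164940780 to 164955850, plus). Timp1 lies on X (20870166 to 20874735, plus), Timp2 on 11 (118301069 to 118355740, minus), Timp3 on 10 (86300372 to 86349506, plus) and Tnc on 4 (63959785 to 64047015, minus). Timp3 shares 1733 exonic bases with Syn3 on the opposite strand, and Tnc shares 176 with 8030451A03Rik. The strand setting of the counting is not given in the sources used here, so reads over these bases cannot be told apart.

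Total counts were 14993749 to 21784140 per library, at which 3 counts stand for 0.138 to 0.200 CPM. Tgfbr2, the targeted gene, stood at 195 ± 20.8 CPM in premalignant sgScr and 113 ± 21.2 in premalignant sgTgfbr2 (SD, n = 3 and 4). It stood at 120.3 ± 8.76 in tumor sgScr and 69.3 ± 2.64 in tumor sgTgfbr2 (SD, n = 3 and 2). The 5 libraries of the tumor table stood apart from the other 13 and went in part against their labels as epithelial organoids. The summed CPM of 11 fibroblast markers was 2542 to 3617 in these 5 libraries, with no marker at 0, and 126 to 225 in the other 13, where Fbln1 made up nearly all of it and Col3a1, Lum and Dpt had no count. The sum of 7 endothelial markers was 107 to 155 against 0.458 to 2.12 CPM. The sum of 10 macrophage and general immune markers was 1020 to 1311 against 20.2 to 78.9 CPM, with Adgre1, Lyz2 and Tyrobp at 0 in all 13. A sum of 10 skeletal muscle markers reached 18671 CPM in the libraries labelled tumor sgScr and 3.89 in those labelled tumor sgTgfbr2. A sum of 10 gastric gland and columnar markers was 2.32 CPM in the former and 30542 in the latter, where the pepsinogen gene Pgc made up 25623. Both tumor groups held less Myc (44.7 and 72.5 CPM) than any other group (349 to 518). Cdkn2a, the target of the shared guide, stood at 0.547 CPM in tumor sgScr, 152 in tumor sgTgfbr2 and 279 to 340.4 in the other groups. The part of these differences in the tumor results below was not tested. In bulk RNA, fewer cells of a type and less RNA per cell cannot be told apart.

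**Figure D1:**
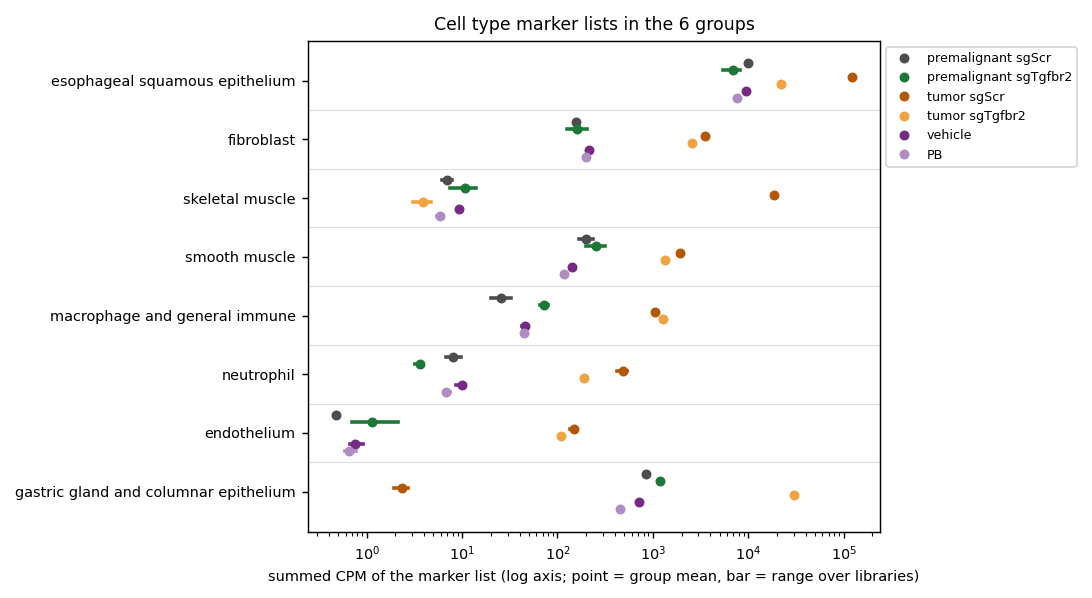
Summed CPM of 8 cell type marker lists (log axis) in the 6 groups; points are group means and bars the range over libraries. The 2 tumor groups lie to the right of all others for the fibroblast list (2542 to 3617 CPM against 126 to 225) and lie apart from each other for the skeletal muscle and gastric lists.

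The 10 genes differed in where they were high. Mmp2, Timp2 and Timp3 were low in the 13 premalignant, vehicle and PB libraries and high in both tumor groups. Mmp2 ranged from 0.0624 to 1.41 CPM in the 13 and from 132 to 167 CPM in the 5 tumor libraries. Timp3 ranged from 0 to 2.16 CPM in the 13 and from 90.7 to 121 CPM in the 5, and Timp2 from 5.69 to 40.3 and from 148 to 403 CPM. Mmp3, Mmp9, Mmp14, Timp1 and Tnc had their highest libraries in tumor sgTgfbr2, where Mmp3 reached 18.01 and 23.3 CPM and no other library passed 3.85. The membrane protease Mmp14 was the one Mmp gene above 50 CPM in every library, with a range of 50.9 to 299.6 CPM. Mmp10 stayed below 1 CPM in every library but 1 of tumor sgTgfbr2 (2.71 CPM).

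**Figure D2:**
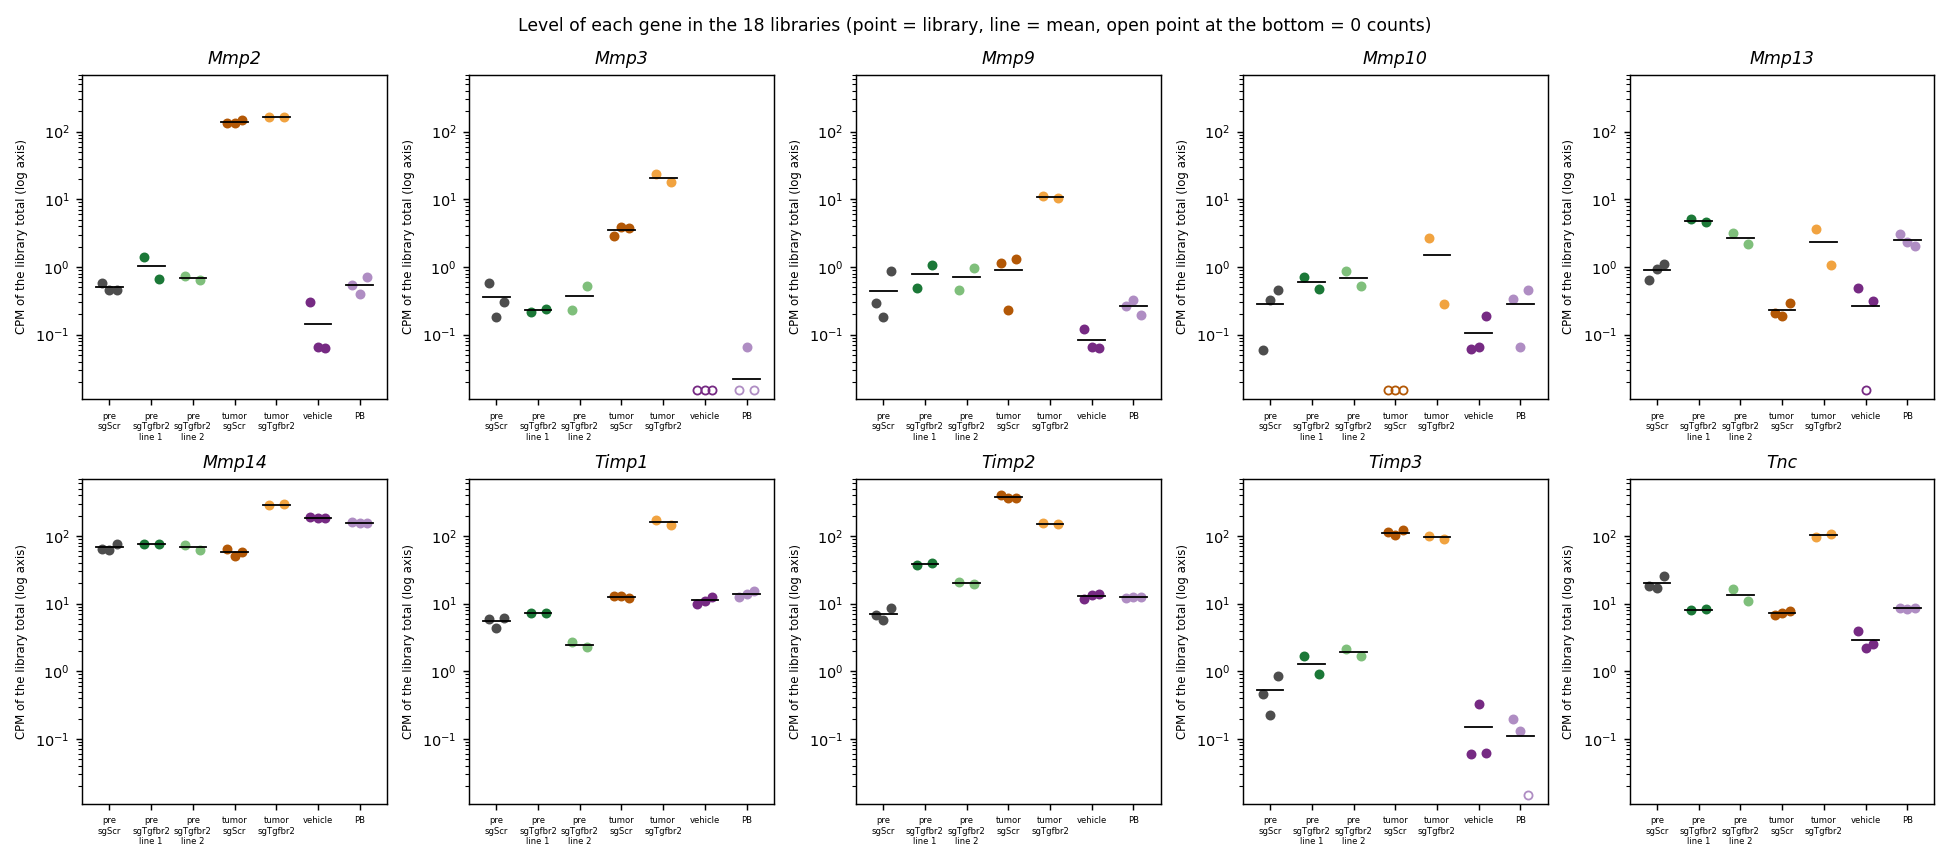
CPM of the library total (log axis) of the 10 genes in the 18 libraries; filled points are libraries, lines are group means and open points at the bottom are libraries with 0 counts. Mmp2 and Timp3 lie near or above 100 CPM in the 5 tumor libraries and below 2.2 CPM in the other 13; Mmp14 lies above 50 CPM in all.

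The gene most like each of these in its pattern, by Pearson's r of log CPM over the 18 libraries, was Mfap5 for Mmp2 (r = 0.998, followed by Pecam1 and Fabp4) and Fstl1 for Timp3 (r = 0.995, followed by Mxra8 and Fbn1). Mfap5 and Fbn1 encode proteins of elastic microfibrils, and Pecam1 is a marker of endothelium. For Timp2 it was Cmbl (r = 0.992), for Mmp3 Nrep (r = 0.995) and for Mmp9 Tspan6 (r = 0.962). For Mmp14 it was Engase (r = 0.982), for Timp1 Cab39l (r = 0.968), for Tnc Abhd17c (r = 0.944) and for Mmp13 Ccng2 (r = 0.878). These values describe 18 libraries that share their group and table, and no p is given. Mmp10 was too low for this measure.

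Levels were compared between genes as CPM per kilobase of exon. Mmp14 ranked first in premalignant sgScr (11.4), premalignant sgTgfbr2 (12.1), vehicle (31.1) and PB (26.4), and its libraries did not overlap those of the gene ranked next. Timp1 was next in sgScr (6.21), vehicle (12.6) and PB (15.7). In premalignant sgTgfbr2, Timp2 (7.57) and Timp1 (5.53) overlapped. In the libraries labelled tumor sgScr, Timp2 ranked first (96.2), ahead of Mmp2 (40.9). In those labelled tumor sgTgfbr2, Timp1 ranked first (179), ahead of Mmp2 (49.3) and Mmp14 (48.9), which overlapped. In premalignant sgScr the 6 lowest genes, from Mmp13 (0.334) to Timp3 (0.0640), each overlapped the neighbour in rank.

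In premalignant organoids, sgTgfbr2 against sgScr, Mmp13, Timp2 and Timp3 rose and Tnc fell, while Mmp14 kept the highest level in both groups with a log2 fold change near 0. The comparison asks what the Tgfbr2 guide changes before tumors form. Of the 10 genes, 8 passed the filter on low counts and 4 of them passed an edgeR adjusted p of 0.05, beside 46.2% of all 13098 genes tested. By direction, 3 were higher (22.7% of all genes) and 1 lower (23.5%). The share called was thus near that of all genes. The median log2 fold change of the 8 was 0.69, beside -0.00 over all genes. That median lies between Mmp9 and Mmp2, low genes that did not pass the threshold, and is not read as a rise of the set. Mmp2 and Timp3 passed the filter only through the sgTgfbr2 libraries, so a higher value there was favoured by the filter. Mmp9 reached the filter's cutoff in 2 of 4 sgTgfbr2 libraries and in 1 of 3 sgScr libraries. Mmp3 (0.184 to 0.586 CPM) and Mmp10 (0.0586 to 0.874 CPM) did not pass the filter.

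Among the proteases, Mmp13 moved most. Its level was 0.644, 0.918 and 1.12 CPM in sgScr, 5.05 and 4.61 CPM in line 1 and 3.22 and 2.21 CPM in line 2. Every sgTgfbr2 library lay above every sgScr library, and line 1 lay above line 2. The log2 fold change was 1.99 ± 0.36 (SE; edgeR adjusted p = 0.00227). It was 2.34 ± 0.30 in line 1 and 1.53 ± 0.31 in line 2, and the difference of line 2 from line 1, -0.81, did not pass the threshold (edgeR adjusted p = 0.0536) but passed it under 6 of 13 alternatives. Mmp14 stood at 65.0, 62.6 and 75.6 CPM in sgScr and at 76.3, 75.5, 74.0 and 62.8 CPM in sgTgfbr2, with overlapping groups. Its log2 fold change was 0.02 ± 0.10 (edgeR adjusted p = 0.863). The gelatinases Mmp2 (0.72 ± 0.42) and Mmp9 (0.66 ± 0.58) did not pass the threshold, at levels of 0.458 to 1.41 and 0.184 to 1.08 CPM.

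Among the inhibitors, Timp2, the partner of Mmp14 in activating pro-Mmp2, moved most with both lines pooled. It stood at 6.80, 5.69 and 8.50 CPM in sgScr, 37.3 and 40.3 CPM in line 1 and 20.6 and 19.8 CPM in line 2. The 3 sets of libraries did not overlap. The log2 fold change was 2.01 ± 0.29 (edgeR adjusted p = 0.00074), or 2.40 ± 0.14 in line 1 and 1.47 ± 0.14 in line 2, where Timp3 had the larger value (1.83 ± 0.47). Timp3 rose from a low level, from 0.469, 0.230 and 0.865 CPM in sgScr to 1.68, 0.899, 2.16 and 1.69 CPM in sgTgfbr2, and the highest sgScr library lay just below the lowest sgTgfbr2 library. Its log2 fold change of 1.57 ± 0.48 (edgeR adjusted p = 0.0236) did not pass without sgScr replicate 1 (adjusted p = 0.0866), without sgScr replicate 2 (0.0955) or without line 2 replicate 1 (0.0504). Timp1 went apart between the lines: 5.98, 4.41 and 6.16 CPM in sgScr, 7.39 and 7.31 CPM in line 1 and 2.67 and 2.27 CPM in line 2. With both lines pooled its log2 fold change was -0.23 ± 0.41 (edgeR adjusted p = 0.669).

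Tnc stood at 18.1, 17.0 and 25.5 CPM in sgScr, 7.93 and 8.39 CPM in line 1 and 16.2 and 10.9 CPM in line 2. All sgScr libraries lay above all sgTgfbr2 libraries, with line 2 replicate 1 close to them. The log2 fold change was -0.96 ± 0.25 (edgeR adjusted p = 0.0120), and it did not pass the threshold without sgScr replicate 3, the highest library (-0.78, adjusted p = 0.0528). Beside these changes, the macrophage and general immune list summed to 20.2 to 32.5 CPM in sgScr and 64.9 to 78.9 in sgTgfbr2, nearly all of it Cd68 and Cd14. The squamous epithelium list summed to 9729 to 10189 and 5438 to 8291 CPM, the gastric and columnar list (Krt18 and Krt8) to 822 to 871 and 1148 to 1224, the neutrophil list to 6.72 to 9.73 and 3.18 to 3.89 and the endothelial list to 0.458 to 0.505 and 0.706 to 2.12. The part of these lists in the results was not tested. The fibroblast list overlapped between the groups (148 to 166 and 126 to 203 CPM), as did the muscle lists.

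The 2 lines were set apart by Timp1, Timp2 and Tnc. Both lines share the same sgScr libraries, and each was compared with them in one fit. Line 1 had 3 genes higher and 1 lower of 9 tested (24.5% and 26.9% of all genes, 51.5% in either direction), and line 2 had 3 higher and 2 lower (28.9% and 29.3%, 58.1% in either direction). Mmp13, Timp2 and Timp3 were the higher ones in both, and Tnc was lower in both. In each line comparison Timp3, like Mmp2 and Mmp10, passed the filter only through the sgTgfbr2 libraries, so its higher value was favoured by the filter. Mmp9 reached the filter's cutoff in 1 of 2 libraries of each line and in 1 of 3 of sgScr. Timp1 was lower in line 2 alone by this threshold (log2 fold change -1.21 ± 0.22, edgeR adjusted p = 0.000311, against 0.35 ± 0.19, 0.145, in line 1). Tested against each other, line 2 lay below line 1 in Timp1 (-1.55 ± 0.23, edgeR adjusted p = 0.000268) and Timp2 (-0.93 ± 0.14, 0.000310) and above it in Tnc (0.75 ± 0.21, 0.0183). These are 3 of 9 genes, beside 26.3% of all genes. That share stands for 1768 genes higher and 1767 lower. Each line had 2 libraries, so leaving out any 1 of them leaves a line with 1 library. The share of all genes called was smaller in each such fit, which the loss of a library alone can bring. The Tnc difference did not pass without line 1 replicate 1 (adjusted p = 0.119), line 1 replicate 2 (0.0741) or line 2 replicate 1 (0.277). In line 2, Tnc against sgScr did not pass without line 2 replicate 2 (adjusted p = 0.174), nor Timp3 without line 2 replicate 1 (0.0625). In line 1, Timp3 against sgScr (1.25, adjusted p = 0.0493) did not pass in 6 of 13 alternatives, among them DESeq2 (0.0622) and the fit without line 1 replicate 1 (0.71, 0.432).

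**Figure D3:**
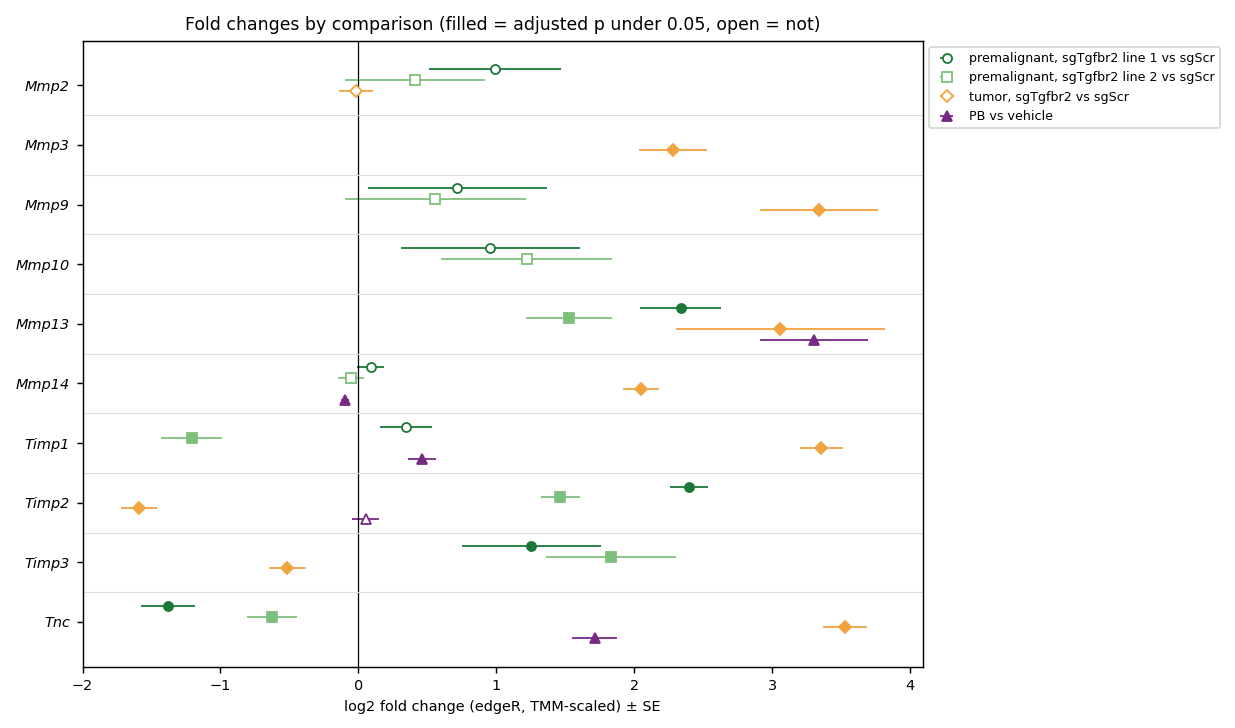
Log2 fold changes (edgeR, TMM-scaled) with SE for the 10 genes in 4 comparisons; filled symbols passed an adjusted p of 0.05, open symbols did not, and a missing symbol was not tested. Timp2 is right of 0 in both premalignant lines (2.40 and 1.47) and left of 0 in the tumor table (-1.59), and Tnc the reverse (-1.38 and -0.63, then 3.53).

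The mix of inhibitors differed between sgTgfbr2 and sgScr in both guide tables, in opposite directions. Of the summed Timp1, Timp2 and Timp3 CPM per kilobase, Timp1 made up 77.0 ± 1.84% in premalignant sgScr (SD, n = 3) and 39.4 ± 6.58% in sgTgfbr2 (SD, n = 4). Timp2 made up 22.2 ± 1.64% and 58.7 ± 5.53%. All 4 sgTgfbr2 libraries, with Timp1 at 32.6 to 46.0%, lay below all sgScr libraries, at 75.2 to 78.9%. The order was the other way in the tumor table, where Timp1 made up 11.5 ± 0.682% in sgScr (SD, n = 3) and 77.9 ± 1.67% in sgTgfbr2 (SD, n = 2). Timp1 made up 78.7 ± 0.872% with vehicle and 83.1 ± 1.18% with PB (SD, n = 3 each), and these libraries did not overlap. Both groups carry sgTgfbr2, yet the vehicle share lay near that of premalignant sgScr and far from that of premalignant sgTgfbr2. Mmp14 made up 92.2 ± 0.928% of the 6 summed Mmp genes in premalignant sgScr, 83.4 ± 1.84% in premalignant sgTgfbr2, 99.3 ± 0.420% with vehicle and 95.1 ± 0.659% with PB. In the tumor libraries, where Mmp2 was high, Mmp14 made up 18.4 ± 2.02% in sgScr and 42.8 ± 2.31% in sgTgfbr2. These shares are descriptions without a test.

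**Figure D4:**
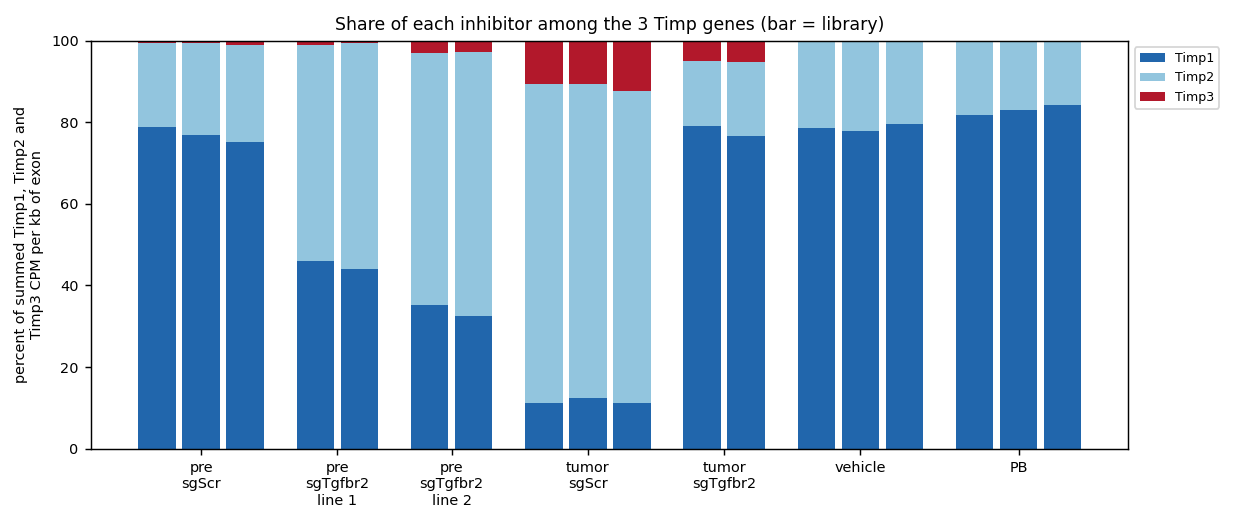
Share of Timp1, Timp2 and Timp3 in their summed CPM per kilobase of exon (percent), 1 bar per library. Timp1 makes up 75.2 to 78.9% in premalignant sgScr, 32.6 to 46.0% in premalignant sgTgfbr2, 11.1 to 12.3% in tumor sgScr and 76.7 to 79.0% in tumor sgTgfbr2.

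In the tumor table, sgTgfbr2 against sgScr, Timp1, Tnc, Mmp9, Mmp13, Mmp3 and Mmp14 rose and Timp2 and Timp3 fell. Of 9 genes tested, 8 passed an edgeR adjusted p of 0.05, beside 60.3% of all 15091 genes; 6 were higher (29.8% of all genes) and 2 lower (30.5%). The median log2 fold change of the 9 was 2.28, beside -0.02 over all genes. Mmp13 passed the filter only through the sgTgfbr2 libraries, so a higher value there was favoured by the filter. Mmp9 reached the filter's cutoff in both sgTgfbr2 libraries and in 2 of 3 sgScr libraries. The groups also differed in muscle, gastric and stromal RNA as given above. Fibroblast sums were 3493 to 3617 CPM in sgScr and 2542 to 2594 in sgTgfbr2. Immune sums were 1020 to 1065 and 1221 to 1311, and squamous epithelium sums 119182 to 127913 and 21870.4 to 22552. Not every gene of these lists followed its sum. Krt4 (mean 64026 and 3986 CPM) and Krt13 (56029 and 7701) carried the squamous fall, with Krt15, Dsg3 and Trp63 also lower by edgeR. Krt14 (1097 and 5628 CPM), Krt5 (1338 and 4389) and Sox2 were higher. Of the fibroblast list, Col1a1 and Col1a2 were higher, Fbln1 and Pdgfrb did not pass the threshold and the rest were lower. Of the immune list, Cd14 (19.1 and 266 CPM), Fcer1g, Tyrobp, C1qa and C1qb were higher. Its largest gene, Lyz2 (753 and 577 CPM), and Csf1r were lower, and Ptprc, Adgre1 and Cd68 did not pass the threshold. The neutrophil list, a cell type known to store Mmp9, summed to 418 to 542 and 188 to 190 CPM, nearly all of it S100a9 and S100a8. Its other genes summed to 13.01 CPM in sgScr and 27.0 in sgTgfbr2, and Csf3r was higher (1.76 and 16.7 CPM, chosen after its values were seen). The part of these lists in the results was not tested.

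Timp1 stood at 13.1, 13.1 and 11.9 CPM in the libraries labelled sgScr and at 175 and 143 CPM in those labelled sgTgfbr2, a log2 fold change of 3.36 ± 0.15 (edgeR adjusted p = 1.65e-14). Tnc went from 6.81, 7.32 and 7.78 CPM to 98.0 and 108 CPM (3.53 ± 0.16, edgeR adjusted p = 1.25e-14). For both genes the groups lay far apart, with every sgTgfbr2 library above every sgScr library. Timp2 went the other way, from 403, 359.8 and 361 CPM to 155 and 148 CPM (-1.59 ± 0.13, edgeR adjusted p = 7.55e-10). Timp3 stood at 113, 103 and 121 CPM against 101 and 90.7 CPM, with non-overlapping groups that lay close together. Its log2 fold change of -0.52 ± 0.13 (edgeR adjusted p = 0.00233) was -0.23 (0.139) with library totals only, a scaling that moved the median of all genes from -0.02 to 0.26 and the share of called genes that were higher from 49.4% to 64.3%.

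Of the proteases among the 10 genes, Mmp14, Mmp3, Mmp9 and Mmp13 passed the test as higher with sgTgfbr2. Mmp14 stood at 64.0, 50.9 and 58.7 CPM in sgScr and 283.5 and 299.6 CPM in sgTgfbr2 (2.05 ± 0.13, edgeR adjusted p = 6.85e-12). Mmp3 stood at 2.85, 3.85 and 3.74 CPM against 23.3 and 18.01 CPM (2.28 ± 0.25, edgeR adjusted p = 5.51e-08). Mmp9 stood at 1.16, 0.232 and 1.31 CPM against 11.1 and 10.6 CPM (3.34 ± 0.43, edgeR adjusted p = 7.11e-07). None of these 3 overlapped between the groups. Mmp13 stood at 0.211, 0.185 and 0.297 CPM in sgScr against 3.63 CPM (67 counts) and 1.06 CPM (19 counts) in sgTgfbr2. Both sgTgfbr2 libraries lay above sgScr, but the size of the change rested mostly on replicate 1. Its log2 fold change was 3.06 ± 0.76 (edgeR adjusted p = 0.00147) and 1.87 (0.188) without sgTgfbr2 replicate 1. Mmp10 had no count in the 3 sgScr libraries and 50 and 5 counts in the sgTgfbr2 libraries. Taking 3 counts over all of sgScr as the limit, Mmp10 was at least 29.0-fold higher, at least 51.8-fold by replicate 1 alone and 5.35-fold by replicate 2 alone. Mmp2 stood at 132, 134 and 147 CPM against 165 and 167 CPM, which did not overlap, yet with TMM scaling the log2 fold change was -0.02 ± 0.13 (edgeR adjusted p = 0.916) and with library totals only 0.27 (0.0643).

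The effect of the guide differed between the tables. A contrast of the tumor effect minus the premalignant effect was fitted on the 12 libraries of both, in which a constant difference between the tables cancels. Of the 10 genes, 6 had a higher effect in the tumor table (25% of all genes) and 2 a lower one (24.5%), by edgeR, or 8 of 10 beside 49.5% of all genes. With library totals only, the share of called genes with the higher effect moved from 50.6% to 61.9%. Tnc (4.47 ± 0.33, edgeR adjusted p = 3.92e-08), Timp1 (3.59 ± 0.44, 8.48e-06), Mmp14 (2.02 ± 0.16, 5.82e-08), Mmp9 (2.67 ± 0.84, 0.0155) and Mmp3 (2.58 ± 0.60, 0.00211) had the higher effect. Mmp9 did not pass without premalignant sgScr replicate 3 (adjusted p = 0.141). Mmp10 was the sixth, with a fitted value that depends on the libraries at 0 and did not pass without tumor sgTgfbr2 replicate 1 (adjusted p = 0.0913). Timp2 (-3.60 ± 0.34, edgeR adjusted p = 4.68e-07) and Timp3 (-2.11 ± 0.41, 0.000514) had the lower effect. Mmp13 (1.07 ± 0.77, edgeR adjusted p = 0.268) and Mmp2 (-0.76 ± 0.33, 0.0693) did not pass. Stage, table and the makeup of the tumor libraries cannot be told apart in this contrast.

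With PB against vehicle, Mmp13, Tnc and Timp1 rose and Mmp14 fell slightly. The comparison asks what the calcium channel blocker changes in tumor organoids with sgTgfbr2. Of 5 genes tested, 4 passed an edgeR adjusted p of 0.05, beside 73.3% of all 12801 genes; 3 were higher (36.5% of all genes) and 1 lower (36.8%). Mmp2, Mmp3, Mmp9, Mmp10 and Timp3 did not pass the filter on low counts, at no more than 0.708 CPM in any library. Mmp13 passed only through the PB libraries, so a higher value there was favoured by the filter. Mmp3 had 1 count in all 6 libraries together. The median log2 fold change of the 5 was 0.46, beside -0.01 over all genes. With library totals only, the median of all genes moved to -0.15 and the share of called genes that were higher from 49.7% to 34.9%; Mmp13, Tnc and Timp1 stayed higher and Mmp14 lower past the threshold.

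Mmp13 stood at 0.485, 0 and 0.312 CPM with vehicle and 3.07, 2.38 and 2.06 CPM with PB. Every PB library lay above every vehicle library. The vehicle values are 8, 0 and 5 counts. The log2 fold change was 3.30 ± 0.39 (edgeR adjusted p = 1.62e-11), and it was 4.04 without vehicle replicate 1, the highest of that group. Tnc stood at 3.88, 2.21 and 2.50 CPM with vehicle and 8.54, 8.45 and 8.76 CPM with PB. The PB libraries lay close together and all above vehicle (1.71 ± 0.16, edgeR adjusted p = 3.46e-15). Timp1 stood at 9.88, 11.1 and 12.5 CPM against 12.7, 14.0 and 15.1 CPM, groups that did not overlap (0.46 ± 0.10, edgeR adjusted p = 4.76e-05). Mmp14 stood at 189, 182 and 186 CPM against 159, 158 and 155 CPM (-0.10 ± 0.03, edgeR adjusted p = 0.0016). Timp2 overlapped (11.8, 13.6 and 14.0 against 12.3, 12.5 and 12.4 CPM) with a log2 fold change of 0.05 ± 0.10 (edgeR adjusted p = 0.623). The fibroblast list summed to 209 to 225 CPM with vehicle and 189 to 203 with PB, and the immune list to 42.5 to 48.2 and 42.6 to 47.2. The squamous epithelium list summed to 9488 to 9627 and 7621 to 7692 CPM, the gastric and columnar list (mostly Krt18) to 718 to 729 and 455 to 460.5, and the smooth muscle list to 141 to 144 and 112 to 123. The skeletal muscle list (9.11 to 9.33 and 5.40 to 6.31 CPM) and the neutrophil list (8.55 to 10.6 and 6.503 to 7.40 CPM) also did not overlap. Some genes did not follow the sum of their list. Of the squamous list, the keratins were lower by edgeR, Sox2 and Dsg3 were higher and Trp63 did not pass the threshold. Of the neutrophil list, Cxcr2 was lower (mean 7.59 and 3.66 CPM) and S100a9 higher (1.72 and 2.43). Fbln1, nearly all of the fibroblast sum, did not pass the threshold. The part of these lists in the results was not tested.

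The genes that act with these proteases were read from 7 lists. Their counts stand beside large shares of all genes tested. In premalignant organoids 22.7% of all genes were higher and 23.5% lower. Between the tumor groups these shares were 29.8% and 30.5%, and with PB 36.5% and 36.8%. One list held 13 genes, those of AP-1 and Ets factors and Runx2, which belongs to neither family. In premalignant organoids, 8 of the 13 rose and 1 fell (median 0.55), led by Fosl2 (1.05 ± 0.10) and the Ets factor Elf3 (1.82 ± 0.18). Between the tumor groups, 11 of 12 rose and 0 fell (median 1.30), led by Elf3 (3.97 ± 0.14) and Runx2, a known activator of Mmp13 in bone (5.50 ± 0.22). With PB, 6 rose and 6 fell of 13 (median 0.00), so the median hides changes in both directions. Of the AP-1 genes, Fos, Fosb, Fosl1, Fosl2, Jun and Junb fell and Jund rose (0.24 ± 0.03). Ets1, Ets2, Etv4, Etv5 and Runx2 rose, and the Ets factor Elf3 did not pass the threshold. The lowest adjusted p-values belonged to Fosb (-2.22 ± 0.03) and Fos (-1.61 ± 0.02). Fos, a subunit of AP-1, stood at 777 ± 9.55 CPM with vehicle and 231 ± 4.06 CPM with PB (SD, n = 3 each). Fos and Fosb were higher in both guide comparisons and lower under PB, and Mmp13 was higher in all 3. Runx2, named here after its values were seen, rose in all 3 comparisons (1.40 ± 0.27, 5.50 ± 0.22 and 1.06 ± 0.03). These directions are description only, and whether any of these factors acts on Mmp13 was not tested.

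**Figure D5:**
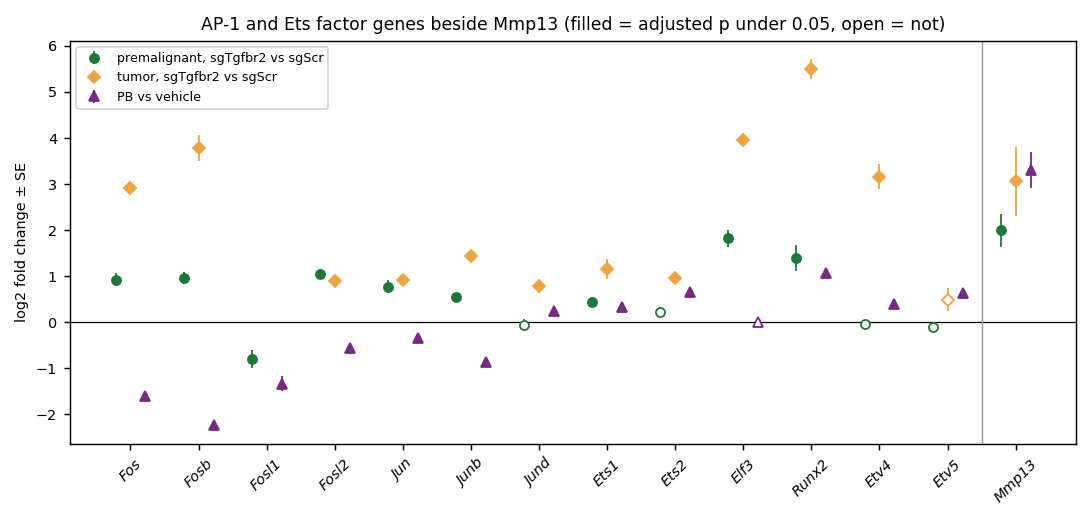
Log2 fold changes with SE of the 13 genes of the AP-1 and Ets list, which also holds Runx2, and, right of the line, Mmp13, in 3 comparisons. Filled symbols passed an adjusted p of 0.05 by edgeR, and a missing symbol was not tested. Fos and Fosb lie above 0 in both guide comparisons and below 0 with PB (-1.61 and -2.22). Mmp13 lies above 0 in all 3. In the tumor and PB comparisons it passed the filter on low counts only through the sgTgfbr2 and the PB libraries.

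Among the 17 other Mmp genes, 6 passed the filter in premalignant organoids (median 1.19), of which Mmp11 (stromelysin-3; 2.15 ± 0.24) and the membrane protease Mmp15 (1.35 ± 0.18) rose. The tumor comparison had 5 rise and 2 fall of 11 (median 0.33, with a fitted value for Mmp7 that rests on libraries at 0). Mmp15 rose by 3.15 ± 0.17, and Mmp7, matrilysin of glandular epithelium, had no count in sgScr and 833 in sgTgfbr2, so that it was at least 439-fold higher if 3 counts over all of sgScr are taken as the limit. With PB 1 rose and 2 fell of 4 (median -0.29), Mmp28 rising by 0.33 ± 0.08 and Mmp15 falling (-0.54 ± 0.11). Among 9 other inhibitors and anchors, 3 of 6 rose and 0 fell in premalignant organoids (median 0.73). They included Reck, a membrane-anchored Mmp inhibitor (1.47 ± 0.27), and Lcn2, which binds Mmp9 (6.08 ± 0.99). Of 8 tested in the tumor comparison, 5 rose and 2 fell (median 0.87), with Reck falling (-2.88 ± 0.28) and Thbs1 rising (2.73 ± 0.12). With PB 1 rose and 2 fell of 5 (median -0.03), with Thbs2 rising (0.81 ± 0.03) and Bsg, an inducer of Mmp genes, falling (-0.39 ± 0.02).

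Of 16 Adam and Adamts proteases, some of which Timp3 inhibits, 4 rose and 1 fell of 9 in premalignant organoids (median 0.12), led by Adamts7 (3.11 ± 0.34) and Adamts4 (3.001 ± 0.39). The tumor comparison had 8 rise and 4 fall of 16 (median 0.90), led by Adam8 (3.30 ± 0.16) and Adam10 (1.10 ± 0.13), and with PB 2 rose and 4 fell of 8 (median -0.13), led by Adamts1 (-0.89 ± 0.04) and Adam9 (0.37 ± 0.03). Of the plasminogen activator system, an activator of pro-Mmp proteins, 2 rose and 3 fell of 9 in premalignant organoids (median -0.49), with the activator Plat rising (1.53 ± 0.13) and Anxa2 falling (-0.68 ± 0.08). Of 10 tested in the tumor comparison, 6 rose and 3 fell (median 0.93), with the urokinase receptor Plaur rising (2.96 ± 0.20) and the inhibitor Serpinb2 falling (-1.99 ± 0.16). With PB 3 rose and 3 fell of 9 (median -0.13), with urokinase, Plau, rising (0.78 ± 0.05) and S100a10 falling (-0.43 ± 0.02).

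Of 15 genes for other tenascins and tenascin receptors, 9 passed the filter in premalignant organoids and the same 9 passed the test, 6 higher and 3 lower (median 0.69). The collagen-binding integrin Itga2 rose (2.06 ± 0.22) and Cntn1 fell (-2.45 ± 0.20). Of 14 tested in the tumor comparison, 5 rose and 4 fell (median 0.26), with the tenascin X gene Tnxb falling (-4.03 ± 0.21) and Sdc4 rising (2.02 ± 0.13). With PB 7 rose and 1 fell of 9 (median 0.38), with the integrin subunit Itgb1 rising (0.46 ± 0.02) and Sdc4 falling (-0.46 ± 0.02). Of 14 matricellular and provisional matrix genes, 4 rose and 0 fell of 9 in premalignant organoids (median 1.28), led by Ctgf (2.40 ± 0.22) and Cyr61 (1.41 ± 0.12). Of 14 tested in the tumor comparison, 8 rose and 4 fell (median 0.91), led by osteopontin, Spp1 (4.24 ± 0.17), and Thbs1. With PB 4 rose and 4 fell of 8 (median 0.11), with Thbs2 rising and Thbs1 falling (-1.64 ± 0.12). All values on the 7 lists are log2 fold changes with SE by edgeR at an adjusted p of 0.05, the medians are over the genes tested, and the shares of all genes called and their medians are those given above.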

How the data were processed

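RNA was extracted with Trizol and sequenced as bulk libraries, per the labels' protocols. The authors deposited 3 tables of whole-number counts per gene. The submitters' processing notes name mm10 with STAR 2.6.0a and DESeq2 1.26.0. The counting program, like its strand setting, is not given in the sources used here. Of the same tables, 18 normalized columns were left unused.

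Levels are CPM of the library's total count; CPM per kilobase divides by the union of exons in GENCODE M21 (GRCm38). Genes passed filterByExpr (minimum count 10) and were tested on the deposited counts with edgeR 4.0.16 (R 4.3.3; TMM scaling, quasi-likelihood F test, Benjamini-Hochberg adjustment over all genes tested, threshold 0.05), with each table fitted alone and the 2 guide tables fitted together for the difference of effects. DESeq2 1.42.0, limma 3.58.1 (voom), RLE scaling, library totals only, no filter, a filter of 1 CPM, a replicate block and leaving out each library in turn were alternatives. The scripts were tested on simulated data. Counts of libraries of a group differed by more than sampling noise (chi-square per degree of freedom 1.51 or more), so none was treated as a duplicate deposit; this does not show that they are separate cultures.

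The 10 genes and all lists were chosen with earlier results of these data known. Named in the text are the 10 genes, Tgfbr2, the 2 genes with the smallest p of each pathway list where 3 or more passed, marker genes, and the genes most alike over libraries (mean of at least 5 CPM). Mmp11, Mmp15 in the premalignant comparison, Mmp7, Csf3r, Runx2 across comparisons, Myc and Cdkn2a were added after their values were seen.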

Additional observations from a re-analysis of the deposited data

Results flagged for a closer look

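In premalignant sgTgfbr2, 1 of 4 libraries lay far from the other 3 for a pair of low genes. Mmp2 reached 1.41 CPM in line 1 replicate 1, with the others at 0.649 to 0.736 CPM, and Mmp3 reached 0.519 CPM in line 2 replicate 2, with the others at 0.217 to 0.240 CPM. Chance alone gives such a gap in about 5% of groups, and Mmp3 rests on few counts.

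The effect of sgTgfbr2 differed between the tumor and the premalignant table by the edgeR test of the difference itself for 8 genes. The log2 difference was 4.47 for Tnc, 3.59 for Timp1, 2.67 for Mmp9, 2.58 for Mmp3, 2.02 for Mmp14, -2.11 for Timp3 and -3.60 for Timp2. For Mmp10 the fitted 6.76 rests on libraries with no count. Stage, table and the makeup of the tumor libraries cannot be told apart.

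The 2 sgTgfbr2 lines differed from each other, by the same kind of test, in Timp1 (-1.55, line 2 below line 1), Timp2 (-0.93) and Tnc (0.75).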

How the results depend on the processing

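Over the alternatives, 755 of 802 log2 fold changes of the 10 genes kept direction and side of the threshold, 20 lost the call, 9 gained it and 18 changed sign, of which 0 had passed the threshold. Of 36 called values, 26 were kept under every alternative run. Where a call was lost, the cause was not tested.

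With library totals only, 1 gene of the 10 was lower in the tumor table instead of 2 (Timp3), Mmp2 turned to 0.27, line 2 Mmp14 to 0.0155 and PB Timp2 to -0.0847. That scaling moved the median of all genes to 0.26 in the tumor comparison, -0.15 with PB and 0.20 in the difference of effects.

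Same-numbered libraries did not deviate together (correlations -0.104 to 0.143), so they share only a number. With the replicate block, 0 of the 10 genes were lower in premalignant organoids (Tnc -0.79, edgeR adjusted p = 0.0777), tumor Mmp2 turned to 0.0208, and 4739, 7607 and 9365 genes were called in the premalignant, tumor and PB comparisons, against 6057, 9095 and 9379. DESeq2 called Mmp2 in the difference of effects (-0.82, adjusted p = 0.0471).

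Leaving out 1 library in turn, premalignant genes called higher ranged from 1954 to 3018 (2979 with all libraries; lowest without sgScr replicate 2 and, at 1977, replicate 1), and genes of the 10 called lower from 0 to 1 (0 without sgScr replicate 3). Genes lower in line 1 ranged from 2258 (without line 1 replicate 2) to 4116, against 3617. Of the 10 genes, 1 to 2 were lower in line 2. Between lines, 691 to 2519 genes were higher (1768 with all) and 757 to 2528 lower (1767), lowest without line 1 replicate 1; 0 to 1 of the 10 was higher. Values that changed sign ranged, for premalignant Mmp14, from -0.0176 to 0.10 and, for Timp1, from -0.49 to 0.0208. Line 2 Mmp14 ranged from -0.17 to 0.0753 and Mmp9 from -0.00345 to 1.45. Between lines Mmp2 ranged from -1.02 to 0.0900, Mmp9 from -0.75 to 0.49 and Mmp10 from -0.18 to 0.58. Tumor Mmp2 ranged from -0.0556 to 0.0141, PB Timp2 from -0.0192 to 0.10 and Mmp13 in the difference of effects from -0.12 to 1.71. In line 2, Mmp10 was called without sgScr replicate 3 (1.69, edgeR adjusted p = 0.0461). A single library left in a group was assumed to vary like the others.

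Depth limits Mmp3, Mmp9, Mmp10, Mmp13 and Timp3 in organoids, where 3 counts stand for 0.138 to 0.200 CPM.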
